A study of Homo sapiens with 6 samples.

Results

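The 47 genes described here code for MYC and partners of its network, for enzymes of polyamine synthesis, and for the nucleolar machinery that makes ribosomes. They were chosen by name, and all 47 were found among the 79172 gene names of the count table. The cells were Huh7, a long-established line from a human hepatocellular carcinoma, profiled by RNA-seq. By their labels, 3 libraries came from control cells and 3 from cells overexpressing HK1, the gene of hexokinase 1, which phosphorylates glucose in the first step of its use. How HK1 was introduced, whether the cells were a clone or a pool, and how the controls were treated are not given in the sources used here. Nothing in the labels ties replicates to separate cultures, so the p-values below measure the spread among these libraries alone, and that spread may be technical.

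MYC is a transcription factor that binds DNA as a dimer with MAX, most tightly at a short palindrome called the E-box. MXD1 and MXI1 also pair with MAX, and their dimers repress genes with the same sites. Genes for ribosome production are among the best known MYC targets: RNA polymerase I copies the ribosomal RNA, small nucleolar ribonucleoproteins (snoRNPs) guide its modification and folding, and assembly factors cut it and load it with proteins. Ribosome production is a large cost for a growing liver cancer cell.

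The E-box, CACGTG, reads the same on both strands. It was searched in the 250 bases upstream of each annotated start, using RefSeq promoters of build GRCh38.p14, which matched 40 of the 47 genes with 54 promoters. It was present in 7 of the 54 (13%), against 8.11% of the promoters of all tested genes and 6.34% of all RefSeq promoters. Promoters of the other ribosome biogenesis genes described further on held it in 14%. Among the 10 promoters of the genes that were lower in HK1-overexpressing cells it was present in 3, and those 10 promoters had a median GC content of 78.4%, against 64.0% in promoters of all tested genes. The 3 windows of ODC1, SRM and UTP4 are shown because these genes fell. Those of LYAR, DDX21 and UTP20 are shown because they hold the same letters in genes that did not pass the test. ODC1, LYAR and DDX21 each had another annotated promoter without the E-box, and which start these cells use was not tested. The strand given is that of the gene, capitals mark the E-box, and the window is cut where it would pass the annotated start. Distances are from the RefSeq start of that promoter. The windows of ODC1, UTP4, LYAR and DDX21 lie within the span of the gene as counted, so they are not in front of the whole gene.
ODC1, chr2:10448024-10448053, minus strand, 29 bases upstream: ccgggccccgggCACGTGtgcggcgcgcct
SRM, chr1:11060200-11060229, minus strand, 199 bases upstream: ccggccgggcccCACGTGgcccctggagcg
UTP4, chr16:69132621-69132648, plus strand, 16 bases upstream: agagcgcgcgcgCACGTGgggccggggc
LYAR, chr4:4290068-4290097, minus strand, 64 bases upstream: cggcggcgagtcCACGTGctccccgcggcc
DDX21, chr10:68956604-68956633, plus strand, 31 bases upstream: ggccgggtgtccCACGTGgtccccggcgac
UTP20, chr12:101280083-101280104, plus strand, 10 bases upstream: cttttttccgtcCACGTGaccc
These are matches of letters and say nothing of whether a factor was bound. NOP10 held the E-box at 170 and at 11 bases upstream, the nearer one within the span of the gene as counted. Of the 8 genes that fell, UBTF, NOP56, DKC1, MRTO4 and NOP14 had no E-box in this window.

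Libraries held between 16771835 and 20823072 counts. HK1 itself had 13, 15 and 13 counts in the controls and 9723, 10602 and 11101 in the HK1-overexpressing libraries, as labelled. Hepatocyte markers were abundant, at a summed level of 13678 to 14575 CPM (counts scaled by library total and normalization factor) in controls and 10507 to 10855 in HK1-overexpressing cells. Of these markers 7 of 10 passed the test described below as lower (70%, against 4.15% of all tested genes). Of 7 fibroblast, 6 blood cell and 4 endothelial markers, 3, 1 and 1 had enough counts to test. CDH5 and KDR were at 0 in every library, and PTPRC had at most 3 counts. Summed levels in control and HK1-overexpressing cells were 20.3 to 21.8 and 24.0 to 25.1 CPM for the fibroblast list, in which COL1A2 was called higher (log2 change 0.58, edgeR adjusted p = 0.001), while COL3A1 (-0.47, 0.218) and PDGFRA (-0.33, 0.208) did not pass. They were 61.2 to 71.1 and 43.5 to 48.5 CPM for the blood list, nearly all of it LYZ, which was called lower (log2 change -0.53, edgeR adjusted p = 0.000297), and 4.02 to 6.25 and 4.53 to 5.40 CPM for the endothelial list. Replicate libraries differed by more than sampling noise, with a chi-square per degree of freedom from 4.949 to 11.02 for pairs of controls and from 1.58 to 2.28 for pairs of HK1-overexpressing libraries.

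Most of the 47 genes lay slightly lower in HK1-overexpressing cells, and 8 of them passed the test: UBTF, ODC1, SRM, NOP56, MRTO4, DKC1, UTP4 and NOP14. None rose. The test was edgeR's quasi-likelihood test on all 16734 genes with enough counts, with Benjamini-Hochberg adjusted p under 0.05 over all of them. All 47 genes had enough counts. The 8 are 17.0% of the 47, while 4.15% of all tested genes were lower and 3.87% higher by the same test. The 47 were chosen with earlier results of these data known, so their shares are a description and were not tested. At an unadjusted p under 0.05, 21 of the 47 were lower and 1, MAX, was higher, while 11.2% of all tested genes were lower and 10.7% higher at that p. DESeq2 called 7 lower and 0 higher, against 3.49% and 2.87% of all tested genes. With limma-voom 8 were lower and 0 higher, against 4.07% and 3.8% of all tested genes. The falls were small, from 11.5% to 18.3%.

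The log2 fold change, HK1-overexpressing over control, was negative for 42 of the 47 and positive for 5, which were MAX, MXD1, MXI1, GAR1 and NOP10. Its median was -0.12, against 0.01 over all tested genes, of which 48.6% had a negative change. The 3 HK1-overexpressing libraries all lay below the 3 controls for 24 of the 47, and all above for 2; among all tested genes 13.9% were separated downward and 13.9% upward. With library totals alone as the scale, 4 of the 47 were lower and 1 higher, 38 had a negative change, and 33.7% of all calls were lower in place of 51.7%. The 95% interval of the change lay within a fold of 1.5 either way for 46 of the 47. The exception was RRN3. All values come from bulk cultures, in which fewer cells of a kind and less RNA per cell cannot be told apart.

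**Figure D1:**
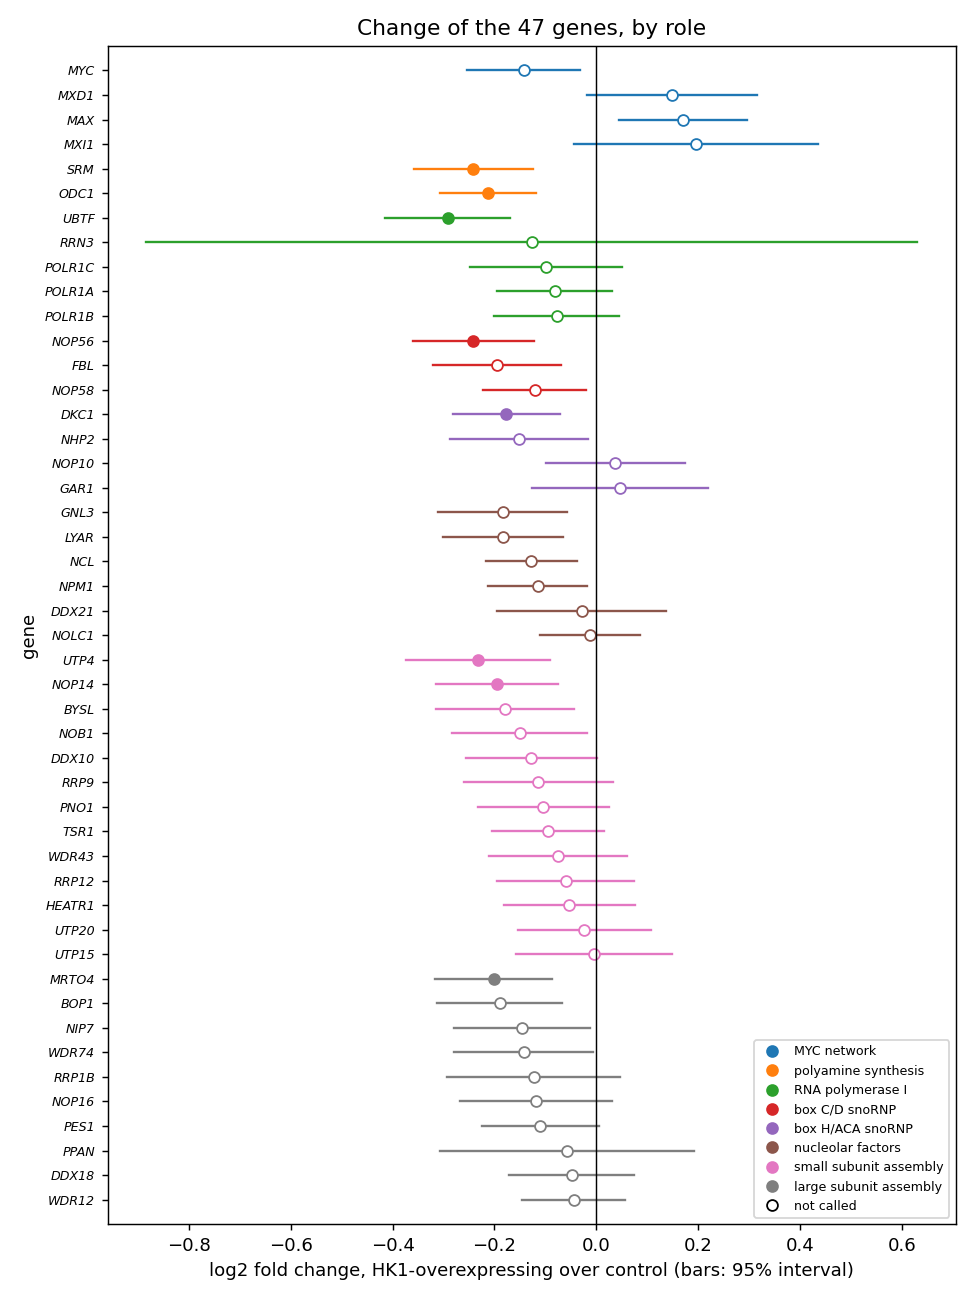
Log2 fold change of each of the 47 genes, HK1-overexpressing over control, grouped by role and colour; bars are 95% intervals, filled points passed the test and open points did not. Nearly all points lie left of 0 within a narrow band, MAX, MXD1 and MXI1 lie right of it, and RRN3 has by far the widest interval.

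In the MYC network the 4 genes did not move one way, and none passed the test. MYC was at 152, 140 and 142 CPM in the controls and at 130, 129 and 134 CPM in HK1-overexpressing cells. The groups did not overlap, and the log2 change was -0.14 (SE 0.05, edgeR adjusted p = 0.112). MAX, the partner that MYC, MXD1 and MXI1 all need, was at 43.2, 42.9 and 45.1 CPM in the controls and at 49.5, 49.1 and 49.0 CPM in HK1-overexpressing cells. Here all 3 HK1-overexpressing libraries were the higher ones, with a change of 0.17 (SE 0.06, edgeR adjusted p = 0.0948). MAX passed the test, at an edgeR adjusted p of 0.0406, when library totals alone set the scale. MYC passed it, at 0.0303, without control replicate 2. Of their exon bases, 20.7% in MYC and 17.4% in MAX are shared with other genes.

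MXD1 and MXI1, the repressive partners among the 47, were at lower levels than MYC and MAX and lay higher, though neither passed the test. MXD1 was at 22.2, 20.4 and 22.2 CPM in the controls and at 22.5, 25.7 and 23.6 CPM in HK1-overexpressing cells. The groups lay close together but did not overlap, with a change of 0.15 (SE 0.08, edgeR adjusted p = 0.293). MXI1 was at 14.6, 12.4 and 16.3 CPM in the controls and at 17.4, 17.9 and 14.3 CPM in HK1-overexpressing cells, so that its groups overlapped (change 0.20, SE 0.11, edgeR adjusted p = 0.337).

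Within each library, the ratio of MYC to MAX in CPM was 3.51, 3.26 and 3.16 in the controls and 2.63, 2.62 and 2.74 in HK1-overexpressing cells. The mean went from 3.31 ± 0.179 (SD, n = 3) to 2.66 ± 0.0687 (SD, n = 3), with no overlap. This ratio was chosen after MYC was seen to be lower and MAX higher, so its separation of the groups is a description and was not tested. It is a ratio of counts and not of molecules, since the 2 transcripts differ in length, but a common scaling factor of a library drops out of it.

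The extended MYC network had 9 other genes, of which 8 had enough counts. Of these 1 was higher and 1 lower (12.5% each, against 3.87% and 4.15% of all tested genes). MXD3 and MNT, also of this network, did not pass, and their groups overlapped. Their log2 changes were -0.12 and 0.03 (edgeR adjusted p = 0.608 and 0.852). MXD4, a further MAX-binding repressor, was at 45.6 ± 1.39 CPM in controls and rose to 55.7 ± 1.94 CPM (SD, n = 3 in each group, as in all values of this form), with a log2 change of 0.29 (SE 0.06, edgeR adjusted p = 0.00836). Without HK1-overexpressing replicate 2 its adjusted p was 0.0757, and without replicate 3 it was 0.0578. MLXIPL, which encodes the glucose-responsive factor ChREBP, fell from 24.3 ± 1.33 to 19.6 ± 0.221 CPM, a change of -0.31 (SE 0.07, edgeR adjusted p = 0.0192). Its adjusted p was 0.0818 without control 3 and 0.0964, 0.0892 and 0.101 without HK1-overexpressing replicates 1, 2 and 3.

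Both enzymes of polyamine synthesis among the 47 fell. AMD1 and SMS, further polyamine enzymes in the MYC target list described below, had log2 changes of 0.09 and -0.12. Neither passed the test (edgeR adjusted p = 0.437 and 0.244), and their groups overlapped. ODC1, ornithine decarboxylase, the enzyme that commits ornithine to polyamines, lies at chr2:10439968-10448327 on the minus strand (build hg38, as are all gene positions that follow). It was at 364, 371 and 363 CPM in the controls and at 318, 314 and 317 CPM in HK1-overexpressing cells. The 2 groups were far apart relative to their spread, and ODC1 fell by 13.7% (log2 change -0.21, SE 0.04, edgeR adjusted p = 0.0083). Leaving out HK1-overexpressing replicate 1, 2 or 3 gave adjusted p-values of 0.0657, 0.0837 and 0.0575.

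SRM, spermidine synthase, lies at chr1:11054584-11060020 on the minus strand. It was at 152, 171 and 164 CPM in the controls and at 138, 140 and 134 CPM in HK1-overexpressing cells. Its lowest control, replicate 1, lay above every HK1-overexpressing library, and SRM fell by 15.4% (log2 change -0.24, SE 0.05, edgeR adjusted p = 0.0138). The adjusted p was 0.0671 without control 3 and 0.0825, 0.0695 and 0.0961 without HK1-overexpressing replicates 1, 2 and 3. ODC1 and SRM were among the 4 of the 47 genes with most counts per length in controls, at 111 and 85.7 CPM per kb of exon.

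Of the RNA polymerase I group 1 gene in 5 fell (20%, against 4.15% of all tested genes), and it showed the largest change of the 47. UBTF encodes the upstream binding factor, which keeps ribosomal DNA open for the polymerase, and lies at chr17:44205033-44221626 on the minus strand. It was at 94.9, 93.7 and 86.5 CPM in the controls and at 72.3, 75.7 and 76.7 CPM in HK1-overexpressing cells. The highest HK1-overexpressing library was below the lowest control, and UBTF fell by 18.3% (log2 change -0.29, SE 0.06, edgeR adjusted p = 0.00571). It passed the test in each alternative tried except the one without HK1-overexpressing replicate 1, where the adjusted p was 0.0608.

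None of the polymerase subunits among the 47 passed the test. POLR1A, the largest subunit, had a log2 change of -0.08, POLR1B, the second largest, of -0.08, and POLR1C, which RNA polymerase III also uses, of -0.10, with edgeR adjusted p-values between 0.401 and 0.477. The groups of POLR1B did not overlap. Outside the 47, the subunits POLR1E and POLR1G had changes of -0.20 (edgeR adjusted p = 0.0585, no overlap) and -0.21 (0.281, with overlap). The changes of POLR1D and POLR1F were -0.06 and 0.01. RRN3, which brings the polymerase to the ribosomal DNA promoter, was at 7.99, 3.40 and 4.49 CPM in the controls and at 4.84, 4.09 and 5.83 CPM in HK1-overexpressing cells. Control replicate 1 stood far above the other two, and the 95% interval of the log2 change, -0.88 to 0.63, leaves its direction unresolved. RRN3 also has near-identical copies in the genome and exons annotated on 1 further sequence, as do UTP4, FBL and NOP10, and fragments that map to both may be missing from the counts of these 4 genes. Among 10 tested genes of the wider RNA polymerase I machinery 1 was lower (10%, against 4.15% of all tested genes) and 0 higher. That gene was TCOF1, which encodes treacle, a partner of UBTF in the nucleolus. TCOF1 went from 189 ± 8.91 to 166 ± 5.08 CPM (log2 change -0.19, SE 0.05, edgeR adjusted p = 0.0422). It missed the threshold without HK1-overexpressing replicates 1, 2 and 3 (adjusted p 0.226, 0.197 and 0.102), with library totals alone (0.11), with no filter (0.057), with a filter at a mean CPM of 5 (0.0566) and without robust dispersion (0.0537).

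**Figure D2:**
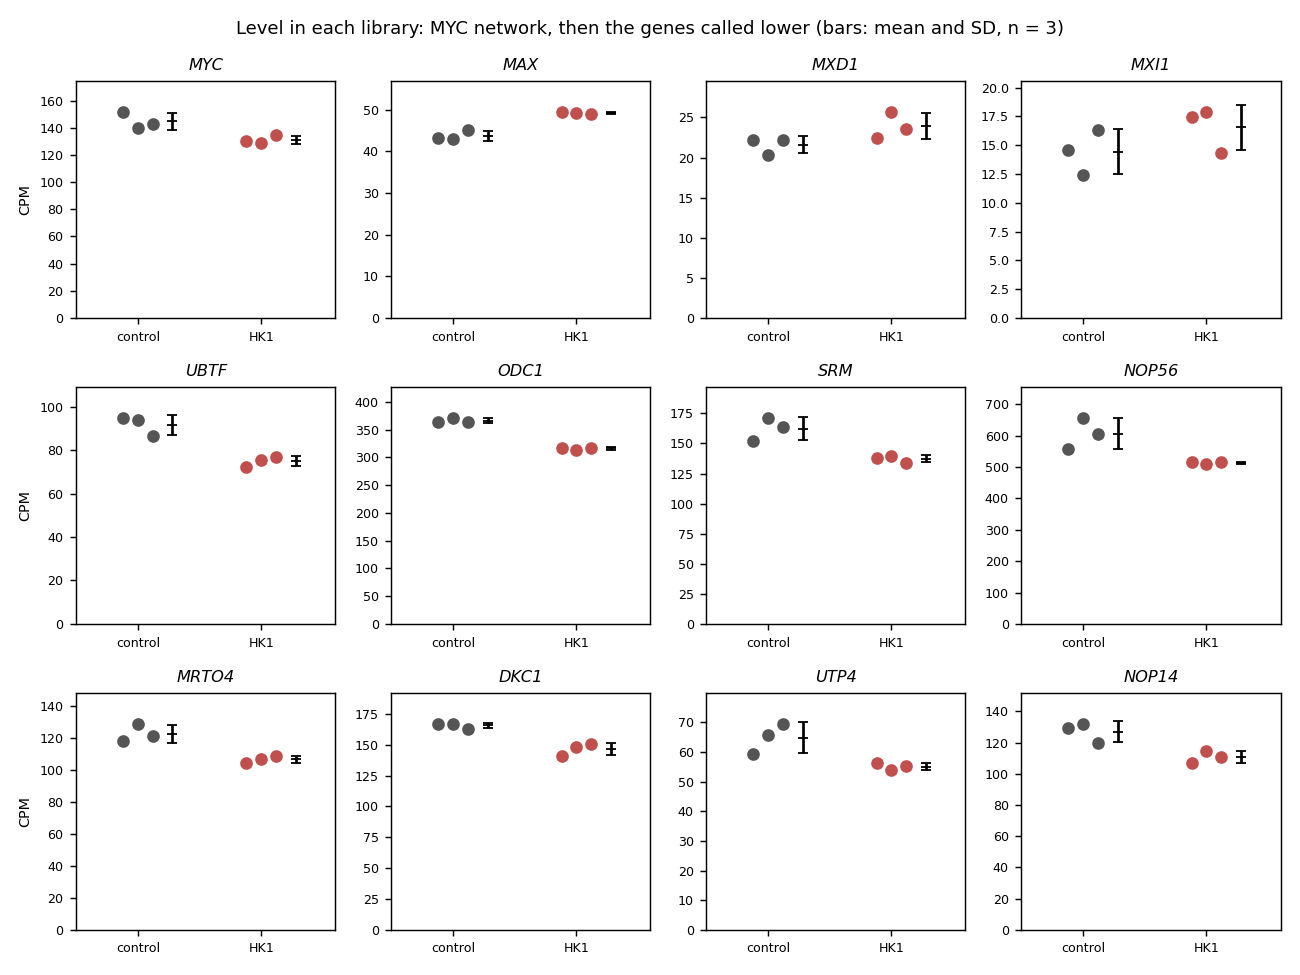
Level in CPM of the 4 MYC network genes and of the 8 genes that passed the test, each axis starting at 0; points are libraries, and the bars beside them are the mean and SD (n = 3). The 8 genes are lower in all 3 HK1-overexpressing libraries, by 11.5% to 18.3%, and their HK1-overexpressing points lie closer together than the control points in most panels.

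The box C/D snoRNP adds methyl groups to ribosomal RNA. Its 3 proteins among the 47 were each lower, and 1 passed the test (33.3%, against 4.15% of all tested genes). NOP56, a scaffold protein of the particle, lies at chr20:2652593-2658393 on the plus strand. It was at 558, 657 and 605 CPM in the controls and at 515, 509 and 515 CPM in HK1-overexpressing cells. The controls were spread widely while the HK1-overexpressing libraries agreed within a few CPM, and NOP56 fell by 15.4% (log2 change -0.24, SE 0.06, edgeR adjusted p = 0.0149). Its adjusted p was 0.0671 without control 3 and 0.0904, 0.0975 and 0.0782 without HK1-overexpressing replicates 1, 2 and 3. FBL, fibrillarin, the methyltransferase, went from 200 ± 15.4 to 175 ± 5.54 CPM (log2 change -0.19, edgeR adjusted p = 0.0572), and its adjusted p was 0.00194 without control replicate 1. NOP58, the second scaffold protein, had a log2 change of -0.12 (edgeR adjusted p = 0.141). The groups of FBL and NOP58 did not overlap. SNU13, a protein of the same particle outside the 47, went from 120 ± 14.3 to 117 ± 5.11 CPM, with overlap. Its log2 change was -0.03 (edgeR adjusted p = 0.849).

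The box H/ACA snoRNP, which turns uridines of ribosomal RNA into pseudouridines and is also part of telomerase, had 2 proteins below the controls and 2 close to them. DKC1, the enzyme dyskerin, lies at chrX:154762742-154777689 on the plus strand. It was at 167, 167 and 163 CPM in the controls and at 141, 148 and 151 CPM in HK1-overexpressing cells. There was a clear gap between the groups, and DKC1 fell by 11.5% (log2 change -0.18, SE 0.05, edgeR adjusted p = 0.0402). The adjusted p was 0.0862 without control 3 and 0.242, 0.170 and 0.109 without HK1-overexpressing replicates 1, 2 and 3. It was 0.109 with library totals alone as the scale and 0.0888 with no filter on low counts. NHP2 had a log2 change of -0.15 (edgeR adjusted p = 0.172), with no overlap. GAR1 and NOP10, the other two proteins of the particle, had changes of 0.05 (95% interval -0.13 to 0.22) and 0.04 (-0.10 to 0.17).

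Of 9 further snoRNP genes 1 was lower (11.1%, against 4.15% of all tested genes) and 0 were higher. RUVBL1, an ATPase that helps to build snoRNPs and other complexes, fell from 144 ± 4.99 to 124 ± 0.983 CPM (log2 change -0.21, SE 0.05, edgeR adjusted p = 0.0171). Without HK1-overexpressing replicates 1, 2 and 3 its adjusted p was 0.0935, 0.115 and 0.101.

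None of the 6 nucleolar factors passed the test. At an unadjusted p under 0.05, 4 were lower, and these had no overlap between groups, where 11.2% and 13.9% of all tested genes did so. DESeq2 called 0 of them, and limma-voom 1, NCL. LYAR, a nucleolar protein that promotes ribosomal RNA synthesis, had the smallest p. It was at 89.5, 97.3 and 97.2 CPM in the controls and at 82.8, 84.6 and 82.5 CPM in HK1-overexpressing cells (log2 change -0.18, SE 0.05, edgeR adjusted p = 0.055). Without control replicate 1 its adjusted p was 0.0094. NCL, nucleolin, was the most abundant of the 47 per length, at 242 CPM per kb in controls. Its level went from 2156 ± 35.6 to 1972 ± 33.2 CPM (log2 change -0.13, edgeR adjusted p = 0.0781), and it passed the test without control replicate 1 (0.0175) and without control replicate 2 (0.0421).

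NPM1, nucleophosmin, a histone and ribosome chaperone, had a log2 change of -0.11 (edgeR adjusted p = 0.148, and 0.037 without control replicate 1). It has many processed copies in the genome, which makes its count uncertain. GNL3, nucleostemin, a GTP-binding protein of the nucleolus, had one of -0.18 (0.071, and 0.0316 without control replicate 2). The changes of NOLC1, a chaperone of snoRNPs, and DDX21, an RNA helicase, were -0.01 (95% interval -0.11 to 0.09) and -0.03 (-0.19 to 0.14). DDX21 ranged from 306 to 394 CPM among the controls alone.

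Of the 13 factors of small subunit assembly, 2 fell (15.4%, against 4.15% of all tested genes) and all 13 changes were negative. UTP4, a part of the complex that meets the nascent ribosomal RNA first, lies at chr16:69131291-69231130 on the plus strand. It was at 59.2, 65.8 and 69.5 CPM in the controls and at 56.3, 54.0 and 55.2 CPM in HK1-overexpressing cells. Control replicate 1 was near the HK1-overexpressing libraries, though above them, and UTP4, whose exons are also annotated on 1 further sequence, fell by 14.9% (log2 change -0.23, SE 0.07, edgeR adjusted p = 0.0442). It missed the threshold by limma-voom (0.0505), with a filter at a mean CPM of 5 (0.0552), without robust dispersion (0.0551), with library totals alone as the scale (0.0863), without control 3 (0.182) and without HK1-overexpressing replicates 1, 2 and 3 (0.141, 0.202 and 0.154).

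NOP14, an early factor of the small subunit, lies at chr4:2937933-2963406 on the minus strand. It was at 129, 132 and 120 CPM in the controls and at 107, 115 and 111 CPM in HK1-overexpressing cells. NOP14 fell by 12.7% without overlap (log2 change -0.20, SE 0.06, edgeR adjusted p = 0.0447). It missed the threshold by DESeq2 (0.0503), with no filter (0.0503), with a filter at a mean CPM of 5 (0.0581), without robust dispersion (0.0565), with library totals alone as the scale (0.11) and without HK1-overexpressing replicates 1, 2 and 3 (0.238, 0.119 and 0.165). The counting did not use strand, per the file headers, and 24.8% of the exon bases of NOP14 also belong to its antisense gene NOP14-AS1. Of the other called genes, MRTO4 shares 19.7% of its exon bases with an unnamed gene, and the other called genes share at most 9.56% of theirs.

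The other factors of the small subunit did not pass the test. BYSL, which acts late in its maturation, had a log2 change of -0.18, NOB1, the nuclease that makes the last cut, of -0.15, and DDX10, a helicase, of -0.13. RRP9, a protein of the U3 particle, had one of -0.11, PNO1, the partner of NOB1, of -0.10, and TSR1, a GTPase-like late factor, of -0.09. The changes of WDR43 (-0.07), RRP12 (-0.06), HEATR1 (-0.05), UTP20 (-0.02) and UTP15 (-0.0047, 95% interval -0.16 to 0.15) were the closest to 0. WDR43, HEATR1 and UTP15 belong to the same early complex as UTP4, which showed the largest fall among them.

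For 44 further genes of small subunit assembly, edgeR called 0 lower and 0 higher. At an unadjusted p under 0.05, 5 were lower (11.4%), near the 11.2% of all tested genes, and 1 was higher. DESeq2 called 0 lower and 1 higher, and limma-voom called none. The smallest p was that of PWP2, at 2.67, 4.40 and 2.79 CPM in the controls and 7.71, 6.01 and 4.41 CPM in HK1-overexpressing cells (log2 change 0.88, edgeR adjusted p = 0.058). Its counts were low, from 46 to 75 in controls and from 93 to 153 in HK1-overexpressing libraries, and the groups lay barely apart. PWP2 was called higher by DESeq2 (0.00799), without robust dispersion (0.0378), with no filter (1.06e-06), with library totals alone (0.0486), without control replicate 2 (0.00377) and without HK1-overexpressing replicate 3 (0.0174).

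Of the 10 factors of large subunit assembly 1 fell (10%, against 4.15% of all tested genes), and all 10 changes were negative. MRTO4, which holds the place of a stalk protein in the young subunit, lies at chr1:19251805-19260128 on the plus strand. It was at 118, 129 and 121 CPM in the controls and at 104, 107 and 109 CPM in HK1-overexpressing cells. MRTO4 fell by 13.1% without overlap (log2 change -0.20, SE 0.05, edgeR adjusted p = 0.0317). Its adjusted p was 0.0781 with library totals alone as the scale, 0.0823 without control 3, and 0.182, 0.157 and 0.101 without HK1-overexpressing replicates 1, 2 and 3.

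BOP1, PES1 and WDR12 form 1 complex and had log2 changes of -0.19, -0.11 and -0.04. BOP1 was nearest to passing (edgeR adjusted p = 0.0572, and 0.0374 without control replicate 3). NIP7, which acts in ribosomal RNA processing, had a change of -0.15 and passed without control replicate 1 (0.0352). RRP1B, a nucleolar protein, had one of -0.12 and passed without control replicate 2 (0.0243). The remaining changes were -0.14 for WDR74, -0.12 for NOP16, -0.05 for the helicase DDX18 and -0.06 for PPAN. PPAN was at a low 8.09 ± 0.916 CPM in controls, and 49.2% of its exon bases also belong to a readthrough gene or to P2RY11, so fragments may be missing from its count.

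The 46 tested genes of the wider large subunit list included 4 that were lower (8.7%) and 1 that was higher (2.17%). Of all tested genes 4.15% were lower and 3.87% higher. LAS1L, which helps to cut the spacer between ribosomal RNAs, fell from 146 ± 4.77 to 124 ± 7.14 CPM (log2 change -0.23, SE 0.06, edgeR adjusted p = 0.0178). WDR18, of the same complex, fell from 95.6 ± 3.78 to 82.8 ± 1.76 CPM (-0.21, SE 0.05, adjusted p = 0.0304). NOC3L, a nucleolar factor also tied to DNA replication, rose from 58.9 ± 3.2 to 69.1 ± 2.2 CPM (0.23, SE 0.06, adjusted p = 0.0307). LAS1L missed the threshold without HK1-overexpressing replicate 1 or 2 (0.149 and 0.102), and NOC3L without replicate 1, 2 or 3 (0.113, 0.0989 and 0.163). WDR18 missed it without control 3 (0.0662) and without HK1-overexpressing replicates 1, 2 and 3 (0.141, 0.117 and 0.156).

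The exosome is the nuclease complex that trims ribosomal RNA ends. In it 2 of 14 genes were lower (14.3%, against 4.15% of all tested genes) and 0 higher. EXOSC2 fell from 127 ± 1.37 to 106 ± 1.86 CPM (log2 change -0.25, SE 0.05, edgeR adjusted p = 0.00521) and missed the threshold only without HK1-overexpressing replicate 1 (0.0565) among the alternatives tried. EXOSC9 fell from 32.1 ± 1.42 to 26.3 ± 1.99 CPM (-0.29, SE 0.07, adjusted p = 0.03). Its adjusted p was 0.0736 without control 3 and 0.0501, 0.192 and 0.123 without HK1-overexpressing replicates 1, 2 and 3. RNA polymerase III makes the small ribosomal RNA and transfer RNAs. Among 21 of its genes 1 was lower (4.76%, near the 4.15% of all tested genes) and 0 higher. This was GTF3C5, a subunit of a factor that binds the promoters of that polymerase, at 153 ± 7.73 and then 133 ± 4.59 CPM (log2 change -0.20, SE 0.05, edgeR adjusted p = 0.0347). GTF3C5 missed the threshold without control 3 (0.0901) and without HK1-overexpressing replicates 1, 2 and 3 (0.213, 0.122 and 0.114). With library totals alone WDR18 (0.0743), EXOSC9 (0.0574) and GTF3C5 (0.0842) missed it too.

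Over all lists of ribosome biogenesis outside the 47 genes, 123 of 124 genes had enough counts, 8 were lower (6.50%) and 1 was higher (0.813%). At that threshold these shares lie nearer to the 4.15% and 3.87% of all tested genes than the share of the 47 does. The difference itself was not tested. At an unadjusted edgeR p under 0.05, 25 of the 123 were lower (20.3%, against 11.2% of all tested genes) and 2 higher (1.63%, against 10.7%). The groups were separated downward for 33 (26.8%, against 13.9% of all tested genes) and upward for 3 (2.44%, against 13.9%). The median log2 change was -0.07, and 97 of the 123 were negative (78.9%, against 48.6% of all tested genes). Of genes in metabolism and growth known as MYC targets, 27 of 28 had enough counts. Of these 9 were lower (33.3%, against 4.15% of all tested genes) and 0 higher. At an unadjusted p under 0.05, 14 were lower (51.9%, against 11.2% of all tested genes) and 1 was higher. This list was chosen with earlier results of these data known, so its shares are a description and were not tested. CDC25A, a phosphatase that drives the cell cycle, fell from 135 ± 6.87 to 107 ± 5.12 CPM (log2 change -0.34, SE 0.06, edgeR adjusted p = 0.00194), and it passed in each alternative tried. SLC19A1, a folate carrier, fell from 61.6 ± 4.64 to 51.2 ± 0.922 CPM (-0.27, SE 0.07, adjusted p = 0.0209). PRMT1, an arginine methyltransferase, fell from 299 ± 13.0 to 260 ± 7.13 CPM (-0.20, SE 0.05, adjusted p = 0.0226). SLC19A1 missed the threshold without HK1-overexpressing replicates 1, 2 and 3 (0.119, 0.0859 and 0.109), and PRMT1 without these (0.168, 0.102 and 0.0946), without control replicate 3 (0.0892) and with library totals alone (0.0593).

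**Figure D3:**
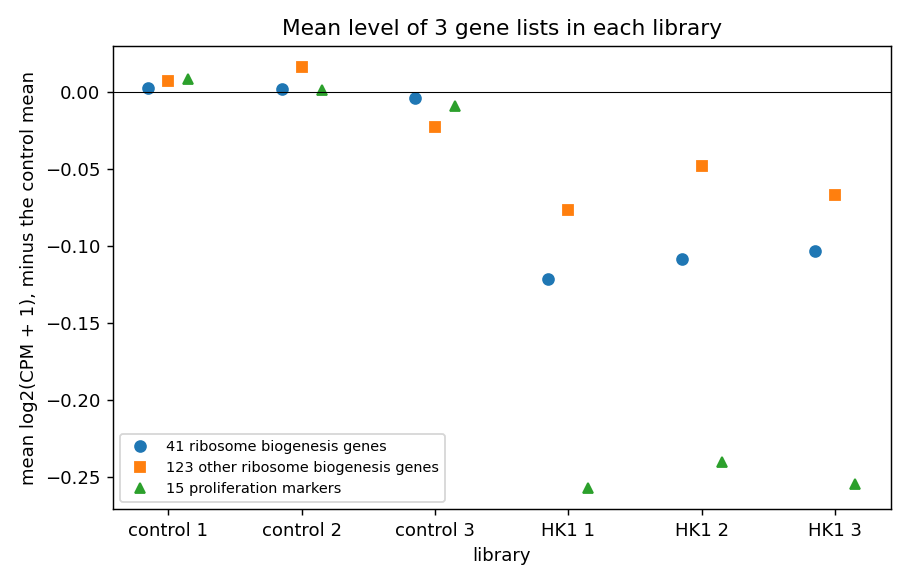
Mean log2(CPM + 1) of 3 gene lists in each library, minus the mean of the 3 controls, for the 41 ribosome biogenesis genes, the 123 other ribosome biogenesis genes tested and 15 proliferation markers. All 3 lists lie lower in every HK1-overexpressing library than in every control, the proliferation markers most and the 123 other genes least.

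The 41 ribosome biogenesis genes, which are the 47 without the MYC network and polyamine enzymes, had a mean log2(CPM + 1) of 6.65, 6.65 and 6.64 in the controls and 6.53, 6.54 and 6.55 in HK1-overexpressing cells. Proliferation markers moved in the same libraries: their mean was 7.79, 7.78 and 7.77 in the controls and 7.53, 7.54 and 7.53 in HK1-overexpressing cells. Of these 15 markers 11 passed the test as lower (73.3%, against 4.15% of all tested genes), MKI67, PCNA and the MCM helicase genes among them. The part of the proliferation markers, and of the hepatocyte markers that were lower as well, in the lower level of the ribosome genes was not tested.

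Levels of the 47 genes spanned a wide range per length. In controls NCL was at 242, NOP56 at 122, ODC1 at 111, SRM at 85.7 and NPM1 at 76.0 CPM per kb of exon. At the other end were DDX10 at 2.87, PPAN at 2.80, MXI1 at 2.45 and RRN3 at 0.638 CPM per kb. Neighbours such as DDX10 and PPAN are close relative to their spread. Of the 5 most abundant, 3 passed the test, and NCL and NPM1 did not.

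The controls varied more than the HK1-overexpressing libraries. The median SD of the 47 genes on the log2(CPM + 1) scale was 0.0787 among controls and 0.0378 among HK1-overexpressing libraries, and over all tested genes it was 0.111 and 0.0681. Control replicate 2 was the highest library for 22 of the 47 and the lowest for 12, and over all tested genes it was the highest for 23.1% and the lowest for 26.8%. HK1-overexpressing replicate 1 was the lowest for 16 of the 47 and for 15.6% of all tested genes. Leaving out 1 library changed the count of genes that fell: it was 13, 12 and 4 when control 1, 2 or 3 was left out, and 0, 1 and 1 without HK1-overexpressing replicates 1, 2 and 3. Over all tested genes the same fits gave 1085, 983 and 438 lower calls for the controls, in that order, and 254, 250 and 303 without the HK1-overexpressing ones, in place of 694. The median change of the 47 stayed between -0.12 and -0.10 in these 6 fits.

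**Figure D4:**
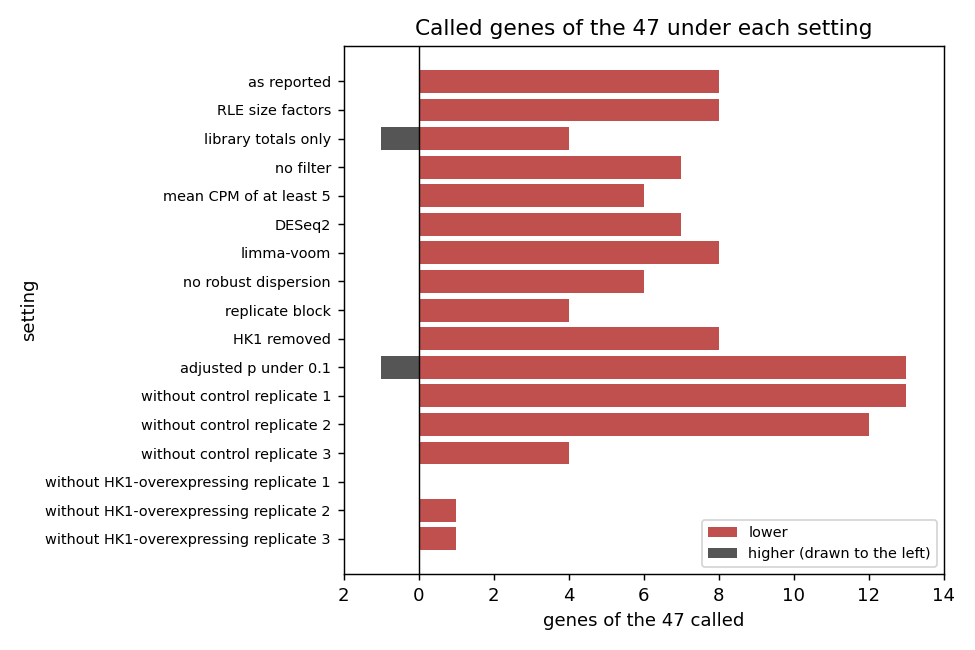
Number of the 47 genes called lower (right of 0) and higher (left of 0) as reported and under each of 16 alternatives. The count of lower genes runs from 0 without HK1-overexpressing replicate 1 to 13 without control replicate 1 or at an adjusted p under 0.1, and at most 1 gene is called higher.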

How the data were processed

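Per the labels' protocols, RNA came from TRIZOL extraction, and a stranded mRNA kit was used for the libraries. The authors deposited unnormalized counts of each gene, from featureCounts 1.5.3 over exons grouped by gene name, with GENCODE release 47 and no strand option, per the file headers. Trim Galore, Subread and the build hg38 are named per the submitters' processing notes. Fragments shared by overlapping genes may be missing.

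The groups' counts were tested in edgeR 4.0.16 under R 4.3.3 (TMM factors, filterByExpr, robust quasi-likelihood test, group as the only term), with Benjamini-Hochberg adjustment at 0.05. CPM values are counts over library total times TMM factor. The SE is the unshrunken coefficient over the square root of F. CPM per kb divides by the deposited exon length.

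The 47 genes and the lists were chosen with earlier results of these data known. Log2 changes are given for all 47. Library values are given for the MYC network, the polyamine enzymes, called genes and, in a role group with none called, the gene of smallest p. From each pathway list up to 3 called genes of smallest p are named, or else the one of smallest p; other uncalled genes and RRN3, NCL, FBL and PPAN have levels that were chosen after their values were seen, as were the MYC to MAX ratio, exon sharing and the promoter search. The test was checked on simulated data, with genes seeded at known folds. It recovered 50% of those seeded at a fold of 1.25 and 96% at 1.5, with 13 false calls among 16460 genes. The test can therefore miss a gene that changed by a fold of 1.25. Among the genes of the 47 that did not pass, the 95% intervals of MXI1 (log2 change -0.04 to 0.43) and RRN3 (-0.88 to 0.63) reached that fold. The intervals of the other genes of the 47 that did not pass lay within it either way. Alternatives were other size factors, library totals, filters, DESeq2 1.42.0, limma-voom 3.58.1, no robust dispersion, a replicate block, HK1 removed, another threshold and leaving out each library.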

Additional observations from a re-analysis of the deposited data

How the results depend on the processing

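Among the 47 and the other genes named by the rule, no call changed direction under the alternatives run. All 8 lower genes of the 47 were called again with RLE factors or HK1 removed. Limma-voom also called 8, of which 7 were the same, with NCL in place of UTP4. Without a filter 7 were called, of which 6 were the same, with FBL added and DKC1 and NOP14 lost. DESeq2 called 7 of the 8, and 6 of them were called without robust dispersion or with a filter at a mean CPM of 5. They numbered 4, with 1 higher, on library totals, and 13, with 1 higher, at an adjusted p under 0.1. For the other ribosome biogenesis genes, 8 lower and 1 higher became 3 and 2 on library totals, 5 and 2 without a filter, and 17 and 2 at an adjusted p under 0.1; the count of higher genes was 2 with DESeq2 and without robust dispersion. At that threshold 2097 genes were called in place of 1342. Leaving out 1 library at a time gave 0 to 13 lower and 0 to 0 higher of the 47, 0 to 12 lower and 0 to 2 higher of the other genes, and 536 to 2257 calls over all genes; over all genes, fits without an HK1-overexpressing library gave fewer calls than any fit without a control. With the replicate number as a block, 4 of the 47 (UBTF, ODC1, SRM and NOP56) and 4 of the other genes were lower, and 1074 genes were called in all. In that fit TCOF1 (0.0926), WDR18 (0.0647), GTF3C5 (0.0579) and NOC3L (0.0507) missed the threshold, and PWP2 (0.00902) was the 1 higher gene. By the labels, libraries with the same replicate number share only that number. Their deviations from the group means correlated at -0.017, 0.05 and -0.067. Control replicate 3 correlated best with HK1-overexpressing replicate 1, at 0.087. With so few libraries, and with noise in each gene, these correlations cannot show whether libraries of the same number were handled together. The cause of each difference was not tested. RRN3 and PPAN had the lowest CPM of the 47.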
